A study of Mus musculus with 8 samples.

Results

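The MHC class II genes examined here were 8 genes chosen by their names and function, with earlier results of these data known: Cd74, H2-Aa, H2-Ab1, H2-Eb1, H2-DMa, H2-DMb1, H2-DMb2 and Ciita. All 8 were among the 16119 genes of the deposited count table, and all 8 were among the 15837 genes that had enough counts to be tested. The libraries came from common dendritic cell progenitors (CDPs), the bone marrow progenitors that give rise to dendritic cells (DCs), sorted as lineage-negative cells with CD115 and Flt3 on their surface, intermediate c-Kit and low Sca-1. Total RNA from 50000 sorted cells per library was depleted of ribosomal RNA and sequenced. The question was whether diet-induced obesity alters gene expression in these progenitors.

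There were 2 groups of 4 libraries. HFD libraries were from C57BL/6 mice (C57BL/6J in the study's methods) given a high-fat diet with 60 kcal% fat, and CF libraries were from mice of the same strain given a control diet with 10 kcal% fat. The labels give 16 weeks of diet for HFD and no time for CF, which they call matched in age and diet. The methods can also be read as an age of 16 weeks at purchase, so the time on diet and the age are uncertain. Neither group carried a transgene or received a drug. The mice were male, and the methods describe the 4 samples of each diet as independent. The labels do not give which animals stand behind each library, so p-values measure the spread between these libraries. The libraries held 28203651 to 48409689 assigned counts. Among replicates of one diet, Pearson's r of log2 CPM (assigned counts per 1000000, with libraries scaled by TMM) across genes ranged from 0.88 to 0.97.

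MHC class II molecules sit on the surface of antigen-presenting cells and show peptides from engulfed proteins to CD4+ T cells. The H2-A and H2-E molecules are pairs of an alpha and a beta chain, Cd74 (the invariant chain) holds their groove until they reach the endosome, and the H2-DM molecules then exchange the last fragment of Cd74 for a peptide. In DCs and other antigen-presenting cells the coactivator Ciita turns these genes on, and it acts through RFX, CREB and NF-Y factors that sit on paired promoter elements called the X and Y boxes.

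Promoter stretches are shown for H2-Aa and H2-Eb1, whose levels followed one order of replicates within each diet. That of H2-DMb2, whose levels did not follow that order, is shown beside them. Whether these sequences have any part in the levels was not tested. RefSeq (GRCm38.p6) gave a promoter, 250 bases before to 50 bases after the gene start, for H2-Aa, H2-Eb1, H2-DMa, H2-DMb1 and H2-DMb2. Capitals mark the X box letters CTNNNAAC and the Y box letters ATTGG where they stood 27 or 28 bases apart, and the letters were chosen after these promoters had been read. Each stretch runs 5′ to 3′ on the strand of its gene. The stretch of H2-Aa is chr17:34287864-34287963 on the minus strand, that of H2-Eb1 is chr17:34305727-34305826 on the plus strand, and that of H2-DMb2 is chr17:34145109-34145208 on the plus strand. All 3 lie upstream of the RefSeq start and hold 0 bases of annotated exon. That of H2-DMb2 lies inside the gene as GENCODE draws it, since its longest annotated extent begins further upstream, at 34143307.
H2-Aa: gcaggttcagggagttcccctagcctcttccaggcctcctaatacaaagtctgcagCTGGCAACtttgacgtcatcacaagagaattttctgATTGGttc
H2-Eb1: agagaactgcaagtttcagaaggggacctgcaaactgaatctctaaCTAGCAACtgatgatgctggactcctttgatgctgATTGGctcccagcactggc
H2-DMb2: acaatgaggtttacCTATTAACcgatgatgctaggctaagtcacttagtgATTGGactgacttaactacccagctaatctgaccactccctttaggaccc

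The paired letters, searched on both strands, ran from -84 to -44 relative to the start of H2-Aa, from -94 to -55 in H2-Eb1, from -97 to -57 in H2-DMb1 and from -126 to -86 in H2-DMb2. H2-DMa held no such pair at either of its 2 listed starts, which says only that these letters are not in those windows. Across all 32851 RefSeq promoters of this length, 32 (0.0974%) held the pair, whereas 41.1% held the X letters and 37.4% the Y letters on their own. Of the 34 other class II pathway genes with a RefSeq promoter, 0 held the pair, which again says only that these letters are not in those windows. Because the letters were chosen after the members' promoters had been read, these shares are no test of a difference between members and other genes. The matches are a description of sequence and no binding was measured here.

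In the 8 libraries, the genes of the antigen-presenting chains, the invariant chain and the coactivator Ciita all had lower mean levels in HFD CDPs, with fitted CF levels 2.17 to 2.31 times those in HFD. For the 3 H2-DM genes the ratio was 1.04 to 1.23. None of the 8 passed an adjusted p of 0.05 in the edgeR quasi-likelihood test. Because these are bulk libraries, fewer cells that carry a transcript and less of that transcript per cell cannot be told apart.

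Cd74, the invariant chain, had 98.4, 145, 208 and 158 CPM in HFD replicates 1 to 4 and 299, 520, 276 and 230 CPM in CF replicates 1 to 4. Every HFD library was below every CF library, and CF replicate 2 stood highest. The means were 153 ± 45.2 CPM in HFD and 331 ± 129 CPM in CF (SD, n = 4 each). The log2 fold change of HFD against CF was -1.12 with a standard error of 0.30 (95% interval -1.80 to -0.44; edgeR adjusted p = 0.18).

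H2-Aa, the alpha chain of the H2-A molecule, had 41.4, 77.0, 147 and 112 CPM in the HFD replicates and 242, 275, 184 and 156 CPM in the CF replicates. The groups did not overlap, although HFD replicate 3 came close to CF replicate 4. The means were 94.2 ± 45.3 and 214 ± 54.0 CPM (SD, n = 4 each), and the log2 fold change was -1.19 with a standard error of 0.36 (95% interval -2.02 to -0.36; edgeR adjusted p = 0.27).

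H2-Ab1 encodes the beta chain that pairs with H2-Aa. It had 20.1, 36.4, 88.7 and 68.2 CPM in the HFD replicates and 144, 150, 109 and 89.2 CPM in the CF replicates. The groups were apart only by the narrow step between HFD replicate 3 and CF replicate 4. The means were 53.3 ± 30.9 and 123 ± 28.9 CPM (SD, n = 4 each). The log2 fold change was -1.21 with a standard error of 0.42 (95% interval -2.17 to -0.24; edgeR adjusted p = 0.39).

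H2-Eb1 is the beta chain of the H2-E molecule, whose alpha chain gene is inactive in C57BL/6 mice. Its CPM were 17.6, 27.1, 64.9 and 45.4 in the HFD replicates and 101, 102, 73.3 and 60.6 in the CF replicates. HFD replicate 3 was above CF replicate 4, so the groups overlapped in this gene. The means were 38.7 ± 20.9 and 84.4 ± 20.8 CPM (SD, n = 4 each), with a log2 fold change of -1.12 and a standard error of 0.38 (95% interval -1.997 to -0.25; edgeR adjusted p = 0.36).

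Ciita, the coactivator, had 7.61, 12.99, 20.1 and 13.5 CPM in the HFD replicates and 36.4, 34.0, 27.6 and 25.4 CPM in the CF replicates. All 4 HFD libraries were below all 4 CF libraries. The means were 13.6 ± 5.12 and 30.8 ± 5.19 CPM (SD, n = 4 each). The log2 fold change was -1.18 with a standard error of 0.27 (95% interval -1.79 to -0.57; edgeR adjusted p = 0.12), the lowest among the 8 genes. Ciita shares 329 exon bases with Dexi on the opposite strand, and how the authors' counting treated strand is not given in the sources used here.

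The H2-DM genes encode the peptide exchange factor, with H2-DMa as the alpha chain and H2-DMb1 and H2-DMb2 as beta chains. H2-DMa had 24.4, 43.4, 44.6 and 59.6 CPM in the HFD replicates and 47.5, 52.8, 39.7 and 38.8 CPM in the CF replicates. The HFD libraries spanned a wider range than the CF libraries and enclosed them, with HFD replicate 1 lowest and HFD replicate 4 highest. The log2 fold change was -0.056 with a standard error of 0.24 (95% interval -0.61 to 0.50; edgeR adjusted p = 0.98), and it turned positive, to 0.14, without HFD replicate 1 and, to 0.034, without CF replicate 2. H2-DMa shares 360 exon bases with Brd2 on the opposite strand.

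H2-DMb1 had 11.4, 20.0, 17.6 and 25.2 CPM in the HFD replicates and 21.4, 31.1, 21.9 and 17.2 CPM in the CF replicates. The groups overlapped, and HFD replicate 1 was again lowest. The log2 fold change was -0.30 with a standard error of 0.26 (95% interval -0.88 to 0.28; edgeR adjusted p = 0.84). H2-DMb2 had 6.51, 7.65, 7.40 and 8.32 CPM in the HFD replicates and 8.14, 9.54, 8.75 and 6.21 CPM in the CF replicates, and these ranges overlapped as well. Its log2 fold change was -0.13 with a standard error of 0.16 (95% interval -0.50 to 0.24; edgeR adjusted p = 0.92). H2-DMb1 and H2-DMb2 are closely related copies. The study's methods kept uniquely mapped read pairs, and how many reads of either gene this left out was not measured here. The intervals of the 3 genes do not reach a 2-fold lower level in HFD.

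**Figure D1:**
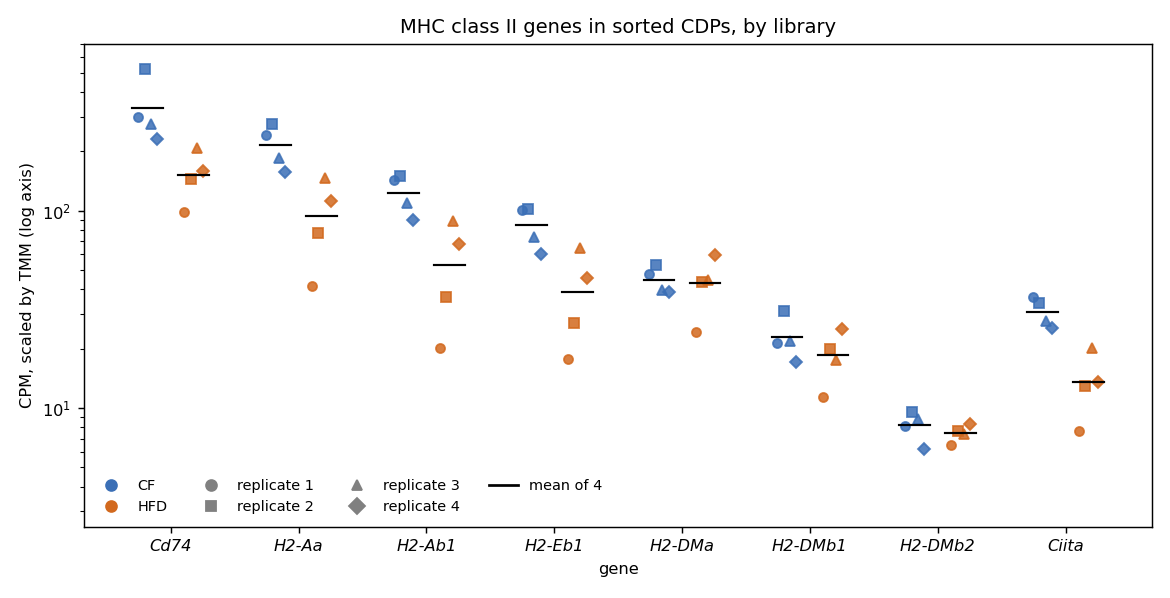
Level of each of the 8 MHC class II genes in CPM (log axis), with 1 point per library, HFD and CF side by side and a bar at each group's mean. For Cd74, H2-Aa, H2-Ab1 and Ciita the 4 HFD points lie below the 4 CF points, whereas the H2-DM genes overlap.

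Of the 8 genes, 0 were called at an adjusted p under 0.05 by edgeR, in a fit where 67 genes (0.423%) were called lower in HFD and 0 higher. At an unadjusted p under 0.05, 5 of the 8 were lower and 0 higher, beside 5.34% lower and 3.22% higher among all genes tested. In 4 of the 8 every HFD library was below every CF library, beside 3.58% of all genes tested and 0.951% of the 11775 protein-coding genes, and in 0 of the 8 every HFD library was above, beside 2.58% of all genes. A log2 fold change of -1 or less was reached by 5 of the 8, beside 4.39% of all genes and 0.926% of protein-coding genes. The median log2 fold change was -1.12 over the 8 members, 0.055 over all genes tested and 0.070 over protein-coding genes. Several members followed the same order of libraries, so the 8 are not independent observations.

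The calls depended on the test. DESeq2 called 3 of the 8 lower in HFD: Cd74 (log2 fold change -1.13, adjusted p = 0.0083), H2-Aa (-1.20, adjusted p = 0.027) and Ciita (-1.19, adjusted p = 0.0020). In that fit 498 of 15916 genes were called lower in HFD and 71 higher. Limma voom with sample quality weights called Ciita alone of the 8 (-1.03, adjusted p = 0.046), in a fit with 251 genes called lower and 22 higher, and the other 17 of 19 alternatives called 0 of the 8. Over all 19 alternatives the log2 fold changes ran from -1.31 to -0.81 for Cd74, from -1.48 to -0.88 for H2-Aa, from -1.57 to -0.85 for H2-Ab1, from -1.49 to -0.78 for H2-Eb1 and from -1.44 to -0.90 for Ciita.

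**Figure D2:**
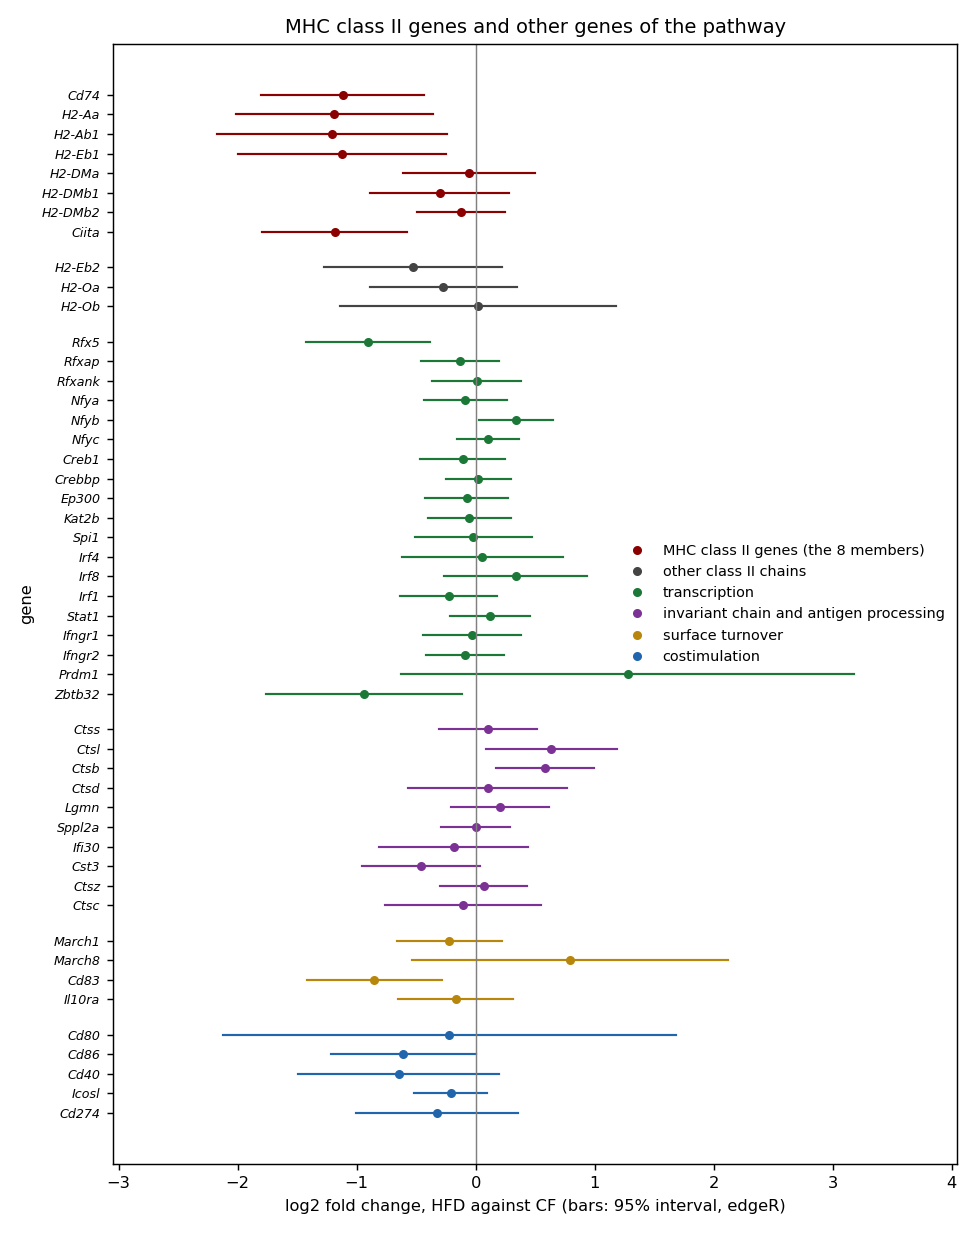
Log2 fold change of HFD against CF (points) with its 95% interval (bars) from edgeR for the 8 MHC class II genes and for 41 other genes of the class II pathway, coloured by role. Cd74, H2-Aa, H2-Ab1, H2-Eb1 and Ciita lie between -1.12 and -1.21, and the 3 H2-DM genes lie between -0.30 and -0.056.

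Counts can be compared between genes only per length, so CPM were divided by the length of each gene's principal transcript in kilobases. On this scale the mean levels in CF were 235 for Cd74, 190 for H2-Aa, 102 for H2-Ab1, 50.6 for H2-Eb1, 26.97 for H2-DMa, 16.3 for H2-DMb1, 5.73 for H2-DMb2 and 5.13 for Ciita. In HFD they were 108, 83.5, 44.0, 23.2, 25.9, 13.2, 5.25 and 2.26 in the same order of genes. Cd74 was above H2-Aa in 7 of 8 libraries, H2-Aa above H2-Ab1 in 8 and H2-Ab1 above H2-Eb1 in 8. H2-Eb1 was above H2-DMa in 4 of 4 CF libraries but in 1 of 4 HFD libraries, where their ranges overlapped. H2-DMa was above H2-DMb1 and H2-DMb1 above H2-DMb2 in all 8. Over all libraries Cd74 stood at percentile 98.9 of the protein-coding genes tested, and Ciita at percentile 44.4.

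The libraries of one diet did not scatter independently from gene to gene. Within HFD, Cd74, H2-Aa, H2-Ab1, H2-Eb1 and Ciita all took the order replicate 1, 2, 4, 3 from low to high. This HFD order was not particular to class II genes. Of the CDP marker genes described below, Flt3 and Cd34 took it too, whereas Csf1r, Kit and Il3ra did not. Within CF, Cd74, H2-Aa, H2-Ab1, H2-Eb1 and H2-DMa took the order replicate 4, 3, 1, 2, and Ciita differed from it only in that replicate 1 was the highest. HFD replicate 1 was the lowest HFD library in all 8 genes. The share of all counts that fell in the 8 genes was 0.0457% ± 0.0183 in HFD and 0.0790% ± 0.0166 in CF (SD, n = 4 each), with HFD libraries at 0.0229% to 0.0665% and CF libraries at 0.0669% to 0.103%. The log2 ratio of the mean shares was -0.79, and it ran from -0.57 without HFD replicate 1 to -1.03 without HFD replicate 3 when 1 library was left out. It was -1.03 both for the share of protein-coding counts and for CPM scaled by TMM.

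Ratios between members within a library do not depend on scaling between libraries. The ratio of H2-Aa to H2-Ab1 counts was 2.06, 2.12, 1.66 and 1.64 in the HFD replicates and 1.69, 1.83, 1.68 and 1.75 in the CF replicates. The diets overlapped in the proportion of these chains, with HFD replicates 1 and 2 highest, and the two-sided exact permutation p was 0.43. H2-Eb1 to H2-Ab1 was 0.754 ± 0.088 in HFD and 0.684 ± 0.014 in CF (SD, n = 4 each; exact permutation p = 0.14). Cd74 to the sum of H2-Aa, H2-Ab1 and H2-Eb1 was 0.919 ± 0.27 in HFD and 0.776 ± 0.15 in CF (SD, n = 4 each; exact permutation p = 0.46).

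The ratio of Ciita to Cd74 was 0.0872 ± 0.0080 in HFD and 0.0993 ± 0.024 in CF (SD, n = 4 each; exact permutation p = 0.51). H2-DMa to the sum of H2-DMb1 and H2-DMb2 was 1.62 ± 0.20 in HFD and 1.47 ± 0.20 in CF (SD, n = 4 each; exact permutation p = 0.29), and H2-DMb2 to H2-DMb1 was 0.426 ± 0.10 and 0.362 ± 0.040 (exact permutation p = 0.31). All 6 ratios overlapped between the diets, with an adjusted p of 0.51 for each, where the smallest exact p that 4 against 4 allows is 0.029. A p of this size does not show that the ratios are equal.

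A seventh ratio was chosen after the values had been seen and was not tested. The summed counts of H2-Aa, H2-Ab1 and H2-Eb1 over those of H2-DMa, H2-DMb1 and H2-DMb2 were 1.87, 1.98, 4.32 and 2.42 in the HFD replicates and 6.33, 5.65, 5.21 and 4.92 in the CF replicates. The groups did not overlap, with HFD replicate 3 nearest to CF.

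**Figure D3:**
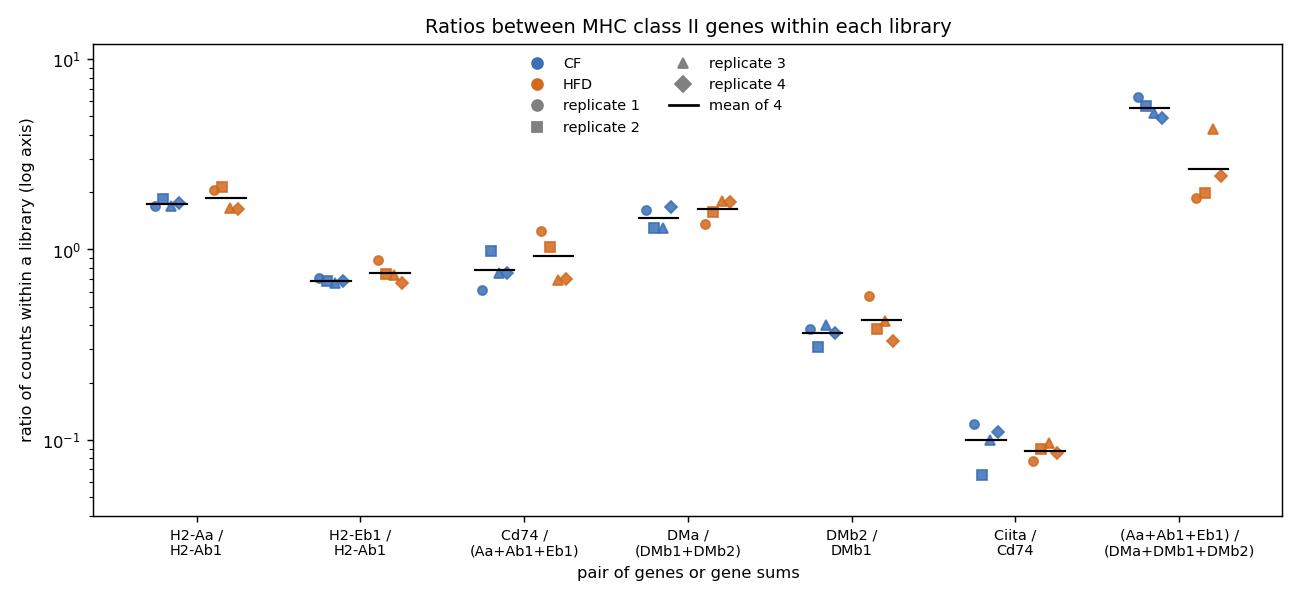
Count ratios between MHC class II genes within each library, with 1 point per library for HFD and CF and a bar at each group's mean. The 6 tested ratios overlap between diets, and the ratio of the antigen-presenting chains to the H2-DM chains, chosen after the values had been seen, does not.

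A list of 43 other genes of class II expression, antigen processing and costimulation was read from the same fit, of which 41 were tested. None was called by edgeR, DESeq2 called 1 (Rfx5), and at an unadjusted p under 0.05 edgeR gave 3 lower and 3 higher in HFD, beside 5.34% lower and 3.22% higher among all genes. The log2 fold change was below 0 in 25 and above 0 in 16, with a median of -0.073, while 6390 of all 15837 genes were below 0 and their median was 0.055. The median was 0.11 when libraries were scaled by size alone, a scaling that moved the median of all genes to 0.25.

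Among the transcription factors, Rfx5 is the DNA-binding RFX subunit of the X box. It had 7.12, 5.13, 6.74 and 8.42 CPM in the HFD replicates and 18.3, 10.1, 12.4 and 10.6 CPM in the CF replicates, and the groups were apart. Its log2 fold change was -0.90 with a standard error of 0.23 (edgeR adjusted p = 0.16; DESeq2 -0.92, adjusted p = 0.015). The partner subunits of the RFX complex gave -0.13 (Rfxap) and 0.0075 (Rfxank). The NF-Y subunit Nfyb stood at 0.34 (edgeR adjusted p = 0.50), and Zbtb32, a repressor of class II genes in B cells, had -0.94 (edgeR adjusted p = 0.47). Zbtb32 was low, with means of 0.61 CPM in HFD and 1.17 CPM in CF. Irf8, a transcription factor that DC progenitors need, had 0.34 (edgeR adjusted p = 0.83). Of the 19 transcription genes 11 were below 0.

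Of the 10 processing genes 4 were below 0 and 6 above. The lysosomal proteases Ctsb and Ctsl stood at 0.58 (edgeR adjusted p = 0.28) and 0.63 (edgeR adjusted p = 0.45), and Ctss, which trims the invariant chain, had 0.10 (edgeR adjusted p = 0.95). Cst3, a cathepsin inhibitor abundant in DCs, had -0.46 (edgeR adjusted p = 0.64). Among the 4 surface turnover genes, Cd83, which keeps class II on the surface, had 2.09, 1.29, 1.78 and 2.01 CPM in the HFD replicates and 4.29, 2.45, 3.50 and 2.73 CPM in the CF replicates. These groups did not overlap, and the log2 fold change was -0.85 with a standard error of 0.25 (edgeR adjusted p = 0.24). The ubiquitin ligase March1, which removes class II from the surface, had -0.22 (edgeR adjusted p = 0.85), the related ligase March8 had 0.79 (edgeR adjusted p = 0.82), and Il10ra had -0.17 (edgeR adjusted p = 0.91).

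The 3 further class II chains gave -0.53 for H2-Eb2, -0.27 for H2-Oa and 0.021 for H2-Ob, where H2-Oa and H2-Ob form the H2-O molecule that restrains H2-DM. All 5 costimulation genes tested had log2 fold changes below 0, from -0.65 for Cd40 to -0.21 for Icosl, with 0 at an unadjusted p under 0.05 in edgeR. The T cell ligand Cd86 had -0.61 (edgeR adjusted p = 0.58).

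Between the start of H2-DMa and the end of H2-Eb1, at chr17:34119541-34316674, lay 11 tested protein-coding genes, 6 of them members. The 5 others, examined after the members' values had been seen, ranged from -0.60 to 0.12 in log2 fold change. Tap1, a subunit of the peptide transporter of MHC class I, had the lowest of these at -0.60 with a standard error of 0.11 (edgeR adjusted p = 0.072), and its HFD libraries were all below its CF libraries. Its partner Tap2 had -0.13, and the immunoproteasome subunits Psmb8 and Psmb9 had 0.12 and -0.091. None of the 5 was called by edgeR, and Tap1 was the only one at an unadjusted p under 0.05.

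The sorted cells were checked against marker genes, since B cells, DCs and macrophages also carry class II transcripts. All 5 genes of the sort and of CDPs (Flt3, Csf1r, Kit, Cd34, Il3ra) were present, with a summed level of 257 to 626 CPM in HFD and 475 to 565 CPM in CF. Their log2 fold changes were all below 0, beside 6390 of all 15837 genes. The median of the 5 was -0.17, and 0 reached an unadjusted p under 0.05 in edgeR. Flt3, the receptor used in the sort, had 88.8, 235, 378 and 303 CPM in the HFD replicates and 316, 232, 227 and 284 CPM in the CF replicates. HFD replicate 1 was the lowest library in Flt3 as well as the lowest in all 8 members except H2-DMb2.

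The 16 B cell markers summed to 214 to 350 CPM in HFD and 155 to 234 CPM in CF, with 15 of 16 above 0 in log2 fold change. Of all 15837 genes tested, 6390 were below 0. None of the 16 was called by edgeR, where 9 were higher in HFD at an unadjusted p under 0.05, beside 3.22% of all genes, and DESeq2 called 3 (Cd79a, Ighd and Spib), all higher. The 11 plasmacytoid DC markers tested were all above 0, with sums of 383 to 985 CPM in HFD and 581 to 663 CPM in CF, 6 of them at an unadjusted p under 0.05 and 0 called by edgeR. Siglech, Ccr9 and Pacsin1 were called higher in HFD by DESeq2 (71 of all 15916 genes in its fit) and by limma voom with sample quality weights (22 of all 15837 genes), which also called Spib, whereas limma voom without weights called 0 of either list. Siglech, a surface lectin of plasmacytoid DCs, had 13.3, 49.5, 33.0 and 62.2 CPM in the HFD replicates and 13.02, 17.1, 13.9 and 13.3 CPM in the CF replicates, with HFD replicate 1 among the CF libraries.

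The 15 conventional DC markers summed to 150 to 370 CPM in HFD and 259 to 308 CPM in CF, with 10 of 15 below 0. At an unadjusted p under 0.05 edgeR gave 1 lower and 1 higher, and neither edgeR nor DESeq2 called any of the 15. Xcr1, a marker of the cDC1 lineage, had 0.64, 4.37, 13.6 and 8.11 CPM in the HFD replicates and 19.1, 10.7, 11.7 and 10.1 CPM in the CF replicates. The groups overlapped, with HFD replicate 1 lowest. Clec9a, a further cDC1 marker, had 10.6, 38.9, 20.9 and 26.96 CPM in the HFD replicates and 34.1, 29.2, 26.8 and 31.8 CPM in the CF replicates, again with HFD replicate 1 lowest. Fscn1, an actin bundling protein of mature DCs, stood at -1.41 in log2 fold change (edgeR adjusted p = 0.43). In the other direction, Cd7 stood at 1.13 (edgeR adjusted p = 0.50), and the integrin Itgax (CD11c) at 0.54 (edgeR adjusted p = 0.68). The part of each of these cell types in the class II levels was not tested.

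Macrophage markers summed to 21.2 to 90.4 CPM in HFD and 26.5 to 66.1 CPM in CF, monocyte markers to 274 to 797 and 510 to 865 CPM, and T and NK cell markers to 12.3 to 30.4 and 13.5 to 22.5 CPM. The neutrophil markers summed to 19499, 3427, 1238 and 926 CPM in the HFD replicates and 1890, 6362, 5910 and 5784 CPM in the CF replicates. None of the genes in these 4 lists was called by edgeR or DESeq2, and 1, in the T and NK cell list, reached an unadjusted edgeR p under 0.05. HFD replicate 1 held the highest neutrophil sum of all libraries and, of the HFD libraries, the lowest level of each class II gene. Without HFD replicate 1 the log2 fold changes were -0.96 for Cd74, -0.94 for H2-Aa, -0.93 for H2-Ab1, -0.88 for H2-Eb1 and -0.99 for Ciita (edgeR adjusted p 0.16, 0.14, 0.20, 0.23 and 0.050, in that order).

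**Figure D4:**
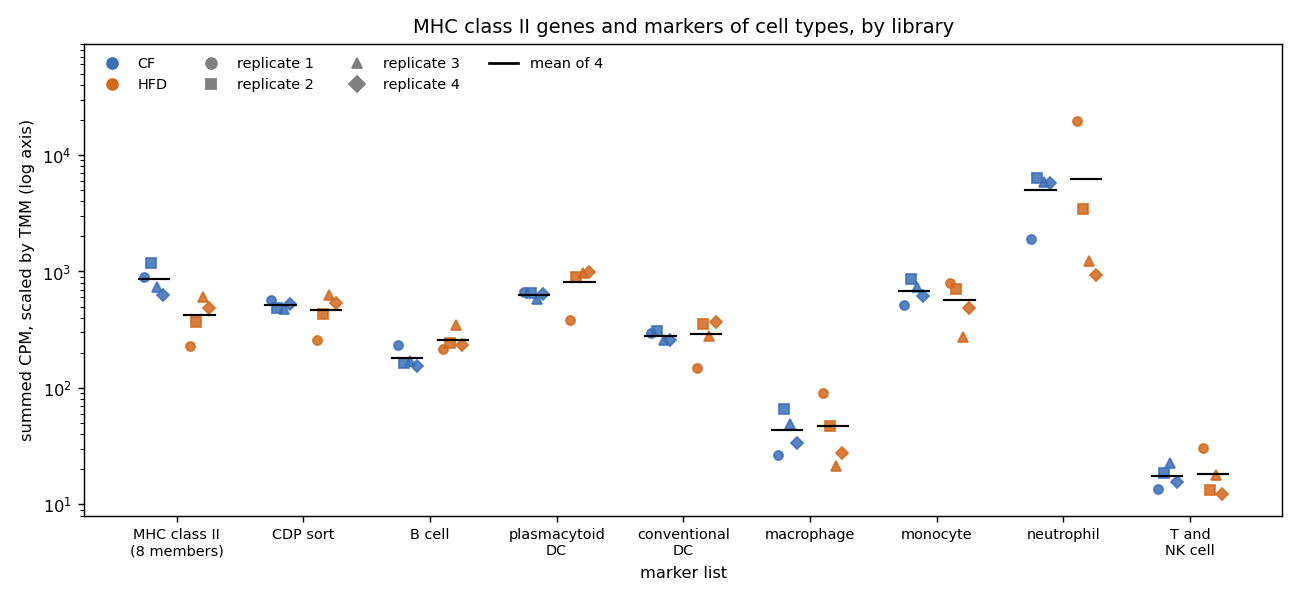
Summed CPM (log axis) of the 8 MHC class II genes and of each list of cell type markers, with 1 point per library for HFD and CF and a bar at each group's mean. HFD replicate 1 has the highest neutrophil sum, 19499 CPM, and the lowest plasmacytoid DC sum, 383 CPM.

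The genes whose log2 CPM followed the members most closely over the 8 libraries were small RNAs. The likeness was Pearson's r with the mean z score of the 8 members, and it is given as a description. The 8 highest were Gm23991 (0.98), Gm22193 (0.97), Gm23090 (0.97), Gm24463 (0.97), Gm22451 (0.97), Gm25107 (0.96), Gm22676 (0.96) and Snord59a (0.96), of which 7 are annotated as small nucleolar RNAs and 1, Gm22451, as a small nuclear RNA. Their transcripts are 72 to 151 bases long. Among protein-coding genes, a restriction chosen after this list had been seen, the highest were Fam189b (0.95), Rpl27a (0.95), Sf3b3 (0.94), Epsti1 (0.94) and Cst3 (0.94).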

How the data were processed

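CDPs sorted from bone marrow of HFD and CF mice were sequenced as total RNA in 8 libraries, 4 per diet (ribosomal RNA depletion, paired reads). The authors aligned reads to GRCm38 with HISAT2 and deposited counts per gene from StringTie on a GENCODE annotation; FastQC and cutadapt also stand in the submitters' processing notes. The annotation release and any use of strand are not given in the sources used here. The counts were raw, 28203651 to 48409689 per library, and the smallest count of a member was 203 (H2-DMb2).

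Counts were tested with edgeR 4.0.16 (TMM factors, filterByExpr, robust quasi-likelihood, R 4.3.3), with Benjamini-Hochberg adjustment over 15837 genes and a threshold of 0.05; 282 genes were left out by the filter. The study used Ballgown, a linear model for each gene, on its own values, and such a model is an alternative here. CPM were scaled by TMM. Gene positions, types and lengths came from GENCODE vM21, in which 16067 of 16119 genes were matched, and promoters from RefSeq. Ratios used an exact permutation test over 70 ways to draw 4 of 8 libraries. The members, the pathway list and the marker lists were chosen with earlier results of these data known. Named were all members, any gene of these lists, and the 8 genes most like the members in Pearson's r; the neighbouring, overlapping and most alike protein-coding genes were added after the values had been seen. Pathway genes absent from the table were not analysed here.

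Alternatives were RLE factors, library size alone, DESeq2 1.42.0, limma 3.58.1 voom with and without sample weights, the linear model on log2(CPM + 1), no filter, at least 1 CPM in 4 libraries, protein-coding genes alone, a replicate block, 0.5 counts added to the ratios, and each library left out in turn. Scripts were tested on simulated data.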

Additional observations from a re-analysis of the deposited data

Results flagged for a closer look

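In 46 groups of 4 libraries (the 8 members, 6 ratios, the share of counts and the 8 marker lists, each in both diets), 3 sums of cell type markers had a library far from the other 3 by Dixon's test. Chance alone marks about 1 in 20 such groups. None of the values of the 8 MHC class II genes, of their ratios or of their share of counts was among them.

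The summed plasmacytoid DC markers were 383 CPM in HFD replicate 1, against 903 to 985 CPM in the other HFD libraries. The summed neutrophil markers were 19499 CPM in HFD replicate 1, against 926 to 3427 CPM in the other HFD libraries. The summed neutrophil markers were 1890 CPM in CF replicate 1, against 5784 to 6362 CPM in the other CF libraries. Within HFD the library highest in neutrophil markers was lowest in all 8 members. Within CF the library lowest in neutrophil markers, replicate 1, was highest in Ciita and second highest in Cd74, H2-Aa, H2-Ab1, H2-Eb1 and H2-DMa. It was second lowest in H2-DMb1 and H2-DMb2. CF replicate 2, with the highest CF neutrophil sum at 6362 CPM, was the highest CF library in every member except Ciita. A relation between neutrophil markers and class II levels was not tested.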

How the results depend on the processing

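Cd74, H2-Aa, H2-Ab1, H2-Eb1 and Ciita kept their direction under all 19 alternatives, and 4 or 5 members had groups apart in each. Members called numbered 3 with DESeq2 (Cd74 -1.13, H2-Aa -1.20, Ciita -1.19), 1 with limma voom and sample quality weights (Ciita -1.03) and 0 otherwise, and DESeq2 called 1 pathway gene (Rfx5, -0.92). H2-DMa turned positive with library size alone (0.16), sample weights (0.029), without HFD replicate 1 or CF replicate 2, and with HFD replicate 1 and CF replicate 1 both left out (0.17), an alternative chosen after seeing the data; leaving out 1 library gave -0.29 to 0.14. H2-DMb2 was 0.096 with library size alone. With both of those libraries out, the log2 ratio of Cd74 to H2-Aa, H2-Ab1 and H2-Eb1 was -0.048 and that of Ciita to Cd74 was 0.011. The cause of these shifts was not tested.

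Genes called lower and higher in HFD, 67 and 0 in the main test, were 498 and 71 with DESeq2, 251 and 22 with sample weights, 98 and 10 with library size alone, 0 and 0 with the linear model for each gene (809 and 648 at an unadjusted p under 0.05), 0 and 0 with protein-coding genes alone (252 and 285), and 350 and 38 with both libraries out. Leaving out 1 library gave 0 to 166 lower and 0 to 34 higher, with 166 lower without HFD replicate 1 and 154 without CF replicate 4. The number called lower was 1 without HFD replicate 2 or HFD replicate 4. It was 0 without HFD replicate 3 and without CF replicate 1, 2 or 3. The labels use the same replicate numbers in both diets. Same-numbered libraries correlated at -0.44 to -0.078, and no HFD library correlated best with its own number. These values cannot settle whether the libraries were paired. With the replicate block 0 genes were called (675 lower and 236 higher at an unadjusted p under 0.05), with Cd74 at -1.10 and Ciita at -1.24. Depth limits H2-DMb2 most, at 203 to 343 counts per library.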

Other observations

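Among the protein-coding genes that followed the 8 MHC class II genes over the libraries, Sf3b3, a splicing factor subunit, had a log2 fold change of -0.66 and HFD libraries all below the CF libraries (edgeR adjusted p = 0.23). Tlr3, the receptor for double-stranded RNA that cDC1 cells carry, had 1.09, 5.22, 9.34 and 6.24 CPM in the HFD replicates and 19.8, 11.8, 9.42 and 6.76 CPM in the CF replicates. These overlapped, and the log2 fold change was -1.12 with a standard error of 0.57 (edgeR adjusted p = 0.69). The neighbouring interferon-responsive genes Phf11a and Phf11b had -0.96 (edgeR adjusted p = 0.30) and -0.84 (edgeR adjusted p = 0.34), with HFD libraries below CF libraries in both. These genes were chosen for their likeness to the members, so their direction is no separate support. Snord59a, one of the 7 small nucleolar RNAs among the genes most like the members, had 1.70, 6.48, 6.69 and 9.59 CPM in the HFD replicates and 25.0, 22.6, 16.97 and 10.1 CPM in the CF replicates.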
